A study of Mus musculus with 6 samples.

Results

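The genes described here are the 10 glycoprotein and proteoglycan genes of basement membrane that were chosen by symbol: the laminin chain genes Lama1, Lama3, Lama5, Lamb1, Lamb2 and Lamc1, the nidogen genes Nid1 and Nid2, the agrin gene Agrn and the perlecan gene Hspg2. All 10 symbols matched 1 Ensembl identifier each among the 56940 genes listed per library, and all 10 passed the filter on low counts. They were measured by RNA sequencing of mouse lens capsules with their attached lens epithelial cells, in a model of cataract surgery in which the fiber cell mass is removed and the capsule is left in the eye. The 0 h group held capsules harvested when the eye was operated on, and the 72 h group held capsules harvested 72 h after the operation, with 3 libraries per group and 5 capsules pooled in each library. All 6 libraries came from C57BL/6 mice labelled wildtype. All of them also carry the tag RUNX_Cre_N in their sample descriptions, which the sources leave unexplained. Each mouse had its second eye operated on after that interval, so that both groups may hold capsules of the same animals, and p-values measure the spread between pools.

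Basement membranes are sheets of matrix under epithelia, and the lens capsule is an unusually thick one that the lens epithelium lays down throughout life. Laminins are heterotrimers of an alpha, a beta and a gamma chain that assemble into a network at the cell surface. Nidogens bind the laminin gamma 1 chain and link that network to collagen IV, whereas agrin and perlecan are heparan sulfate proteoglycans that bind laminin or nidogen, dystroglycan and growth factors.

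Counts in genes ranged from 11338820 to 12432688 per library at 0 h and, 72 h after surgery, from 8453450 to 8945397. Of the 9 lens epithelial markers, Pax6 stood between 585 and 746 CPM in all libraries, which does not speak for the others. Of the 9, 7 fell, with a median log2 change of −1.67 for the list. The share of counts held by the 9 was 8.09% to 8.47% at 0 h and 0.963% to 1.92% at 72 h. The 9 include the crystallin genes Cryaa and Cryab, and a summed share mostly follows its most abundant genes. What part of the share was crystallin is not given here. Lens fiber markers fell for 8 of 8 tested genes, and held 6.76% to 7.24% of counts at 0 h and 0.550% to 1.05% at 72 h. The fixed markers of corneal and skin epithelium held 0.528% of counts in 72 h replicate 3. They held 0.00413% and 0.0173% in the remaining 72 h libraries and 0.00720% to 0.0117% at 0 h. Macrophage and monocyte markers (16 listed, 13 called higher, none at 0 counts in either group) held 0.00401% to 0.00630% of counts at 0 h and 0.0250% to 0.0505% at 72 h. Neutrophil markers (12 listed, 4 tested, 3 called higher) held 4.9e-04% to 5.0e-04% and 0.0179% to 0.0309%. At 0 h 7 of the 12 were at 0 counts (Ly6g, Mpo, Elane, Cxcr2, Retnlg, Camp and Ngp). At 72 h 5 were (Ly6g, Mpo, Elane, Camp and Ngp), so that Cxcr2 and Retnlg had counts at 72 h only. Fibroblast markers (8 listed, 6 tested, 5 called higher and 1 lower) held 0.0252% to 0.0340% at 0 h and 0.0769% to 0.176% at 72 h. Dpt, of this list, was at 0 counts in both groups. Vascular endothelial markers (12 listed, 6 tested, 2 called higher), from cells that also make laminins and perlecan, held 0.00444% to 0.00570% and 0.00717% to 0.0141%. Over all tested genes 21.0% were called higher and 17.5% lower. Photoreceptor markers, of retinal cells, held 0.0757% to 0.190% and 0.00682% to 0.0168%. Pericyte and smooth muscle markers (7 tested, 1 called higher and 2 lower) held 0.0210% to 0.0226% and 0.0149% to 0.0203%. Their summed share fell although their median log2 change was 0.68. The shares of ciliary and iris pigment epithelium markers overlapped, at 0.00524% to 0.00866% and 0.00197% to 0.00733%. Apart from these last and the corneal and skin markers, the shares moved with the comparison of 0 h and 72 h, and their part in the results below was not tested. In whole capsules fewer cells of a type and less RNA per cell cannot be told apart.

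By 72 h the 10 genes had moved in both directions. Agrn, Lamb1 and Lamc1 rose, and Lama3, Nid1, Hspg2 and Lamb2 fell. Lama1, Lama5 and Nid2 were not called. These 7 calls among 10 genes stand beside 38.5% of all 15407 tested genes called in either direction (21.0% higher and 17.5% lower) at an adjusted p under 0.05. The test was edgeR's quasi-likelihood F test, with Benjamini-Hochberg correction across every tested gene. The same 7 genes had groups that did not overlap, which held for 53.5% of all tested genes. The median log2 change, 72 h over 0 h, was 0.10 for the 10 genes and −0.02 for all tested genes. The summed share of counts held by the 10 genes was 0.726% to 0.797% at 0 h and 0.344% to 0.511% at 72 h, and most of it was Nid1 and Hspg2.

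**Figure D1:**
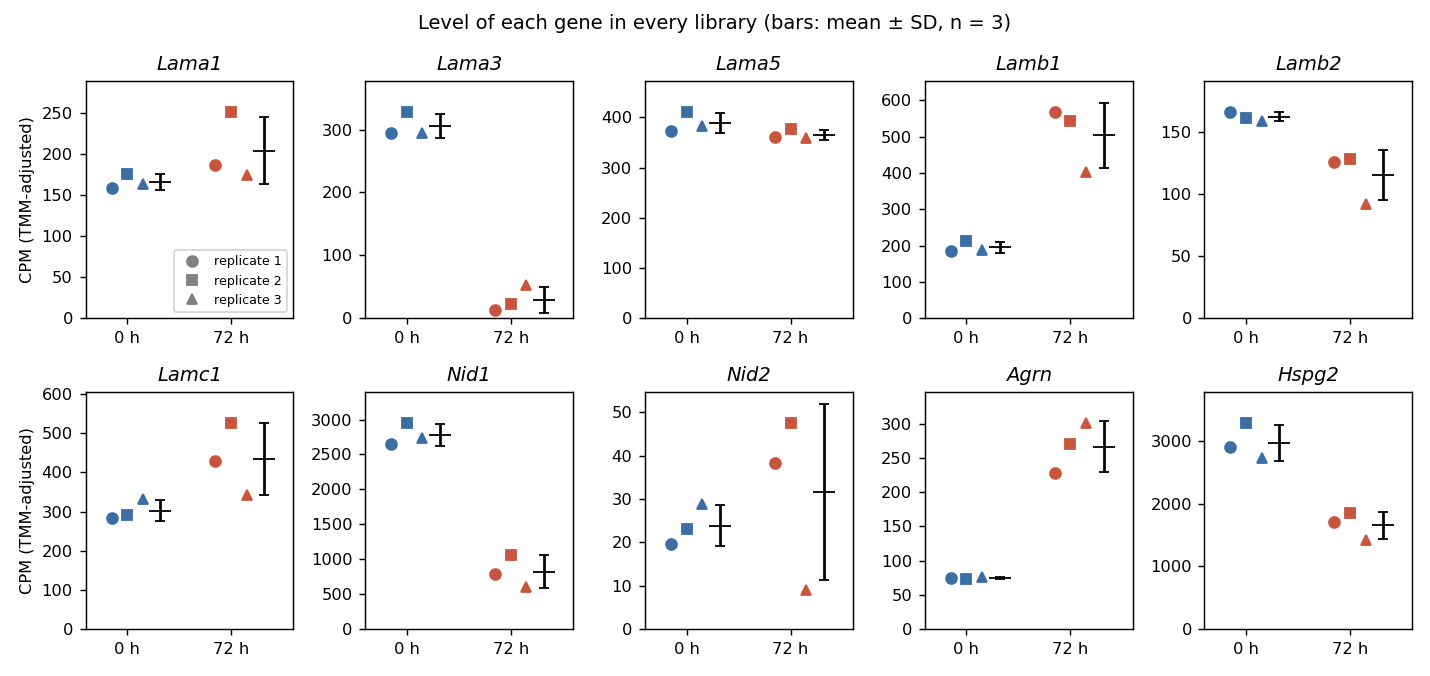
Level of each of the 10 genes in every library, in CPM of the TMM-adjusted library, with 1 panel per gene and a linear axis from 0. Points are libraries (shape gives the replicate) and the black bar is the mean ± SD of 3 libraries; Agrn and Lamb1 sit higher at 72 h in every library and Lama3, Nid1 and Hspg2 lower.

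Levels are given as CPM, the counts of a gene scaled to a common TMM-adjusted library size. Agrn (ENSMUSG00000041936) encodes agrin, known for clustering acetylcholine receptors at the nerve-muscle junction and for linking laminin to dystroglycan. It stood at 74.8, 72.5 and 75.7 CPM at 0 h and at 228, 270 and 302 CPM at 72 h. The 0 h libraries lay close together, and every 72 h library lay far above them. The log2 change was 1.84 ± 0.12 (SE; adjusted p = 3.1e-06), or 3.59-fold, the largest rise among the 10 genes.

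Hspg2 (ENSMUSG00000028763) encodes perlecan, a large proteoglycan that carries heparan sulfate chains and binds nidogen and fibroblast growth factors. Its level was 2897, 3292 and 2727 CPM at 0 h and 1709, 1843 and 1419 CPM at 72 h. The groups did not overlap, and the level remained far above that of Agrn in every library. Its log2 change was −0.84 ± 0.12 (adjusted p = 4.8e-04), so that it was 1.79-fold lower.

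The ratio of Agrn to Hspg2 within a library needs no scaling between libraries, and shows how the pair changed relative to each other but not the direction of either. Per kb of exon, Agrn counts were 0.0398, 0.0340 and 0.0428 of Hspg2 counts at 0 h and 0.206, 0.226 and 0.328 at 72 h. The ratio of counts was 6.41-fold higher at 72 h (mean log2 ratio −5.32 ± 0.17 before and −2.64 ± 0.36 after, SD over 3 libraries; exact two-sided permutation p = 0.1, the smallest that 3 against 3 can give). Perlecan transcripts were still the more abundant per length at 72 h, by 3.05 to 4.86 times.

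Nid1 (ENSMUSG00000005397) encodes nidogen 1, the main linker between laminin and collagen IV. It was measured at 2652, 2955 and 2735 CPM at 0 h and at 792, 1065 and 598 CPM at 72 h. All 72 h libraries lay below all 0 h libraries, with replicate 3 the lowest. The log2 change was −1.76 ± 0.19 (adjusted p = 1.2e-04), or 3.40-fold lower. An antisense gene, Gm48682, shares 143 bases of exon with Nid1 and had 8 to 38 counts in every library.

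Nid2 (ENSMUSG00000021806) encodes nidogen 2, a related linker. Its level was 19.5, 23.1 and 28.8 CPM at 0 h and 38.3, 47.6 and 8.89 CPM at 72 h. At 72 h replicates 1 and 2 lay above every 0 h library and replicate 3 lay below every one, so the groups overlapped and the gene was not called (log2 change 0.41 ± 0.58, adjusted p = 0.625, 95% interval −1.03 to 1.85). Without 72 h replicate 3, the library in which the markers of corneal and skin epithelium held 0.528% of counts, Nid2 was called higher (log2 change 0.86, adjusted p = 0.00225; 0.00225 to 0.992 over all alternatives tried). Nid2 exons overlap those of Rtraf, a gene on the opposite strand, over 437 bases in the GENCODE annotation. Rtraf had 661 to 820 counts at 0 h and 320 to 455 at 72 h. The sources do not give the strand setting of the counting, so reads of the shared stretch are uncertain.

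The ratio of Nid1 to Nid2 was lower in every 72 h library than in any 0 h library. Nid2 itself was not called, and the uncertainty of its reads shared with Rtraf holds for this ratio too. Per kb, Nid1 counts were 70.8 to 101 times those of Nid2 at 0 h and 15.4, 16.6 and 49.8 times at 72 h. The mean log2 ratio of counts fell by 1.91 (from 6.88 ± 0.28 to 4.97 ± 0.95, SD, n = 3; exact permutation p = 0.1). The ratio of Nid1 to Lamc1, whose product nidogens bind, was described after its values were seen. It was 11.1, 12.1 and 9.77 per length at 0 h and 2.20, 2.41 and 2.08 at 72 h, a narrow range within each group.

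Lama3 (ENSMUSG00000024421) showed the largest fall. It encodes the alpha 3 chain of the laminin of hemidesmosome-bearing epithelia such as skin. Its level was 295, 328 and 295 CPM at 0 h and 13.6, 21.9 and 52.5 CPM at 72 h. The groups stood far apart, but the 72 h libraries differed among themselves and replicate 3 was the highest. The log2 change was −3.38 ± 0.56 (adjusted p = 0.00785), or 10.4-fold lower, and −4.10 without 72 h replicate 3 (adjusted p = 6.0e-09; 6.0e-09 to 0.0328 over all alternatives tried). Agrn and Lama3 were the members for which 72 h replicate 3 gave the highest of the 72 h values, whereas it gave the lowest for the other 8.

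Lama5 (ENSMUSG00000015647), which encodes the alpha 5 chain of many adult basement membranes, had the smallest fitted log2 change of the 10. It stood at 373, 411 and 384 CPM at 0 h and at 360, 377 and 359 CPM at 72 h, with overlapping groups. Its log2 change was −0.09 ± 0.09 (adjusted p = 0.463), with a 95% interval of −0.29 to 0.11. Lama1 (ENSMUSG00000032796), the alpha 1 chain gene of early embryonic basement membranes and of the lens capsule, was measured at 158, 176 and 163 CPM at 0 h and at 187, 251 and 174 CPM at 72 h. Replicate 3 at 72 h lay just below the highest 0 h library, and the gene was not called (log2 change 0.30 ± 0.14, adjusted p = 0.120, 95% interval −0.01 to 0.61). Without 72 h replicate 3 it was called higher (0.41, adjusted p = 0.0111; 0.0111 to 0.399 over all alternatives tried).

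Lama3 counts per kb were 0.839, 0.845 and 0.813 of those of Lama5 at 0 h and 0.0402, 0.0615 and 0.155 at 72 h. The ratio of counts was 11.5-fold lower (exact permutation p = 0.1). Lama1 to Lama5 was 0.498 to 0.504 at 0 h and 0.570 to 0.783 at 72 h, and these did not overlap although the levels of Lama1 did. The ratio was 1.29-fold higher (mean log2 ratio −1.23 ± 0.01 and −0.86 ± 0.24, SD, n = 3; exact permutation p = 0.1).

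Lamb1 (ENSMUSG00000002900) encodes the beta 1 chain, shared by many laminins. Its level was 184, 213 and 189 CPM at 0 h and 568, 542 and 402 CPM at 72 h. All 72 h libraries lay well above 0 h, for a log2 change of 1.37 ± 0.14 (adjusted p = 5.0e-05), or 2.58-fold. Lamb2 (ENSMUSG00000052911) encodes the beta 2 chain, known from neuromuscular, kidney and eye basement membranes. It stood at 166, 161 and 159 CPM at 0 h and at 126, 128 and 92.2 CPM at 72 h. The groups did not overlap and the change was small (log2 change −0.49 ± 0.13, adjusted p = 0.0153). The call of Lamb2 was lost without any one of the 0 h libraries, with adjusted p = 0.0582, 0.0526 and 0.0525 without replicates 1, 2 and 3 (0.00142 to 0.0582 over all alternatives tried).

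Of the 5 ratios, that of the beta chains had the smallest SD among 72 h libraries on the log2 scale. Lamb1 counts per kb were 0.679, 0.810 and 0.727 of those of Lamb2 at 0 h, and 2.76, 2.59 and 2.67 times those of Lamb2 at 72 h. Lamb2 transcripts were the more abundant per length in every 0 h library and Lamb1 transcripts in every 72 h library. The ratio of counts rose by 3.63-fold (mean log2 ratio 0.26 ± 0.13 before and 2.12 ± 0.05 after, SD over 3 libraries; exact permutation p = 0.1). Over the 5 ratios compared, every Benjamini-Hochberg adjusted p was 0.1, and no smaller value could have been reached.

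Lamc1 (ENSMUSG00000026478) encodes the gamma 1 chain, which carries the nidogen-binding site. Its level was 284, 289.9 and 333 CPM at 0 h and 429, 527 and 343 CPM at 72 h. The lowest 72 h library, replicate 3, lay barely above the highest 0 h library. The log2 change was 0.52 ± 0.15 (adjusted p = 0.0205), or 1.43-fold. This call was lost with library size alone (adjusted p = 0.0589) and without 0 h replicate 1 (0.0991), 0 h replicate 2 (0.0949), 72 h replicate 1 (0.0570) or 72 h replicate 2 (0.0599), in a range of 1.3e-04 to 0.0991 over all alternatives tried.

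**Figure D2:**
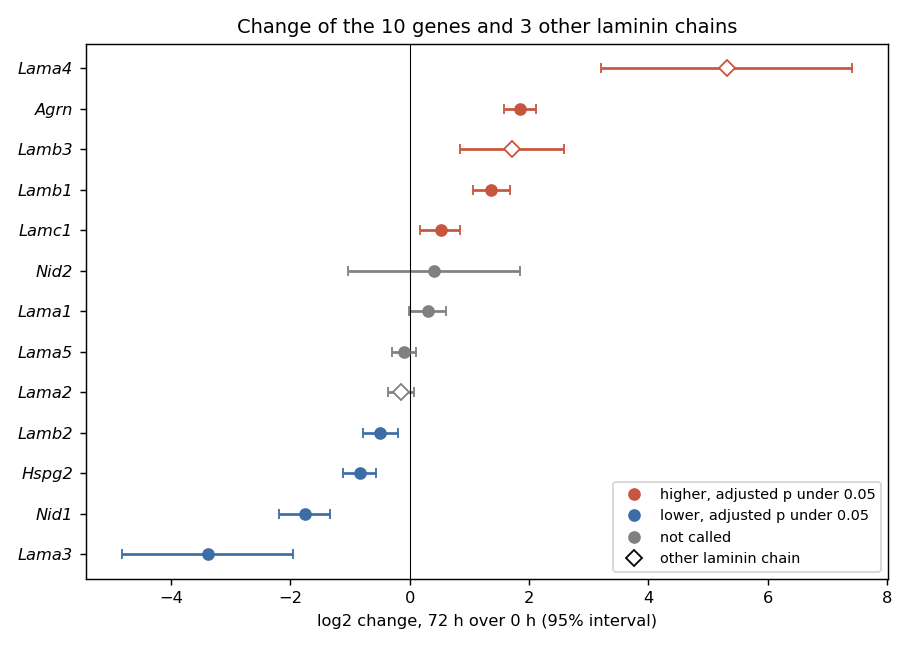
Log2 change, 72 h over 0 h, of the 10 genes (filled circles) and of 3 other laminin chain genes (open diamonds), with 95% intervals of edgeR's fit and colour for the call. Agrn at 1.84 and Lamb1 at 1.37 lie to the right of 0, Nid1 at −1.76 and Lama3 at −3.38 to the left, and the intervals of Lama1, Lama5, Nid2 and Lama2 include 0.

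**Figure D3:**
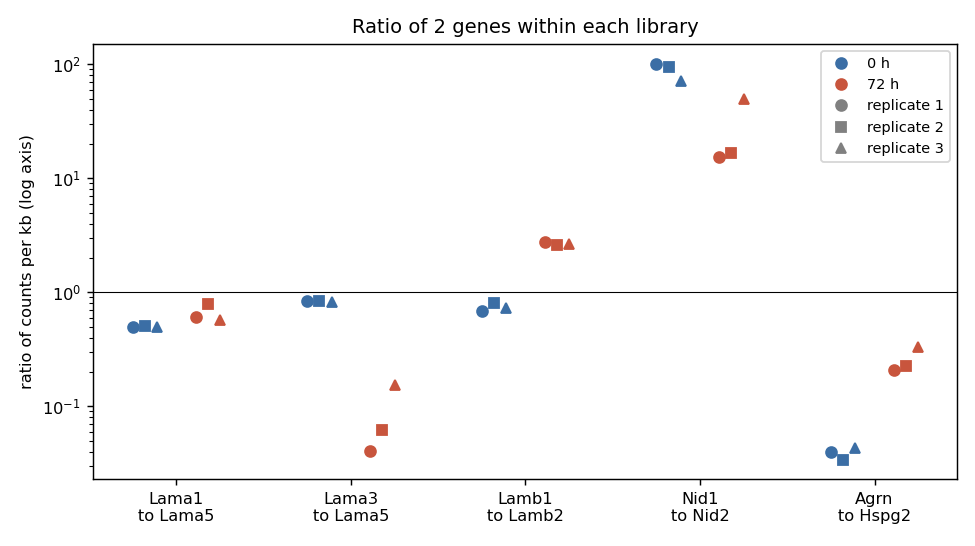
Ratio of the counts per kb of exon of 2 genes within each library, on a log axis, for the 5 pairs compared (blue 0 h, red 72 h, shape gives the replicate). The horizontal line marks equal counts per kb; Lamb1 to Lamb2 lies below it in all 0 h libraries and above it in all 72 h libraries.

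Promoter sequences from RefSeq (GRCm38.p6, another build than that of the counts) were found for 6 of the 10 genes, and are shown for the pair with called rises (Agrn, Lamb1) and for a pair with called falls (Nid1, Lamb2), so that windows of genes that moved in opposite directions can be read side by side. Each window runs 5′ to 3′ on the strand of the gene, from 250 bases before the start to 50 after it. Agrn has 2 windows in the table and the upstream one is shown. Capitals mark GGGCGG, the GC box, on either strand (CCGCCC on the other strand).
Agrn, chr4:156197439-156197738, minus strand: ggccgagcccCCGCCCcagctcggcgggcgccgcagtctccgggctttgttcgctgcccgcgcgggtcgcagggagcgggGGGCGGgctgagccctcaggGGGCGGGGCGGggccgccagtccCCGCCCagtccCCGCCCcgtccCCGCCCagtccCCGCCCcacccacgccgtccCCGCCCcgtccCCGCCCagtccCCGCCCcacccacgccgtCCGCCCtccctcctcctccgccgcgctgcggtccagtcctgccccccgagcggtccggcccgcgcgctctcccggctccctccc
Lamb1, chr12:31265043-31265342, plus strand: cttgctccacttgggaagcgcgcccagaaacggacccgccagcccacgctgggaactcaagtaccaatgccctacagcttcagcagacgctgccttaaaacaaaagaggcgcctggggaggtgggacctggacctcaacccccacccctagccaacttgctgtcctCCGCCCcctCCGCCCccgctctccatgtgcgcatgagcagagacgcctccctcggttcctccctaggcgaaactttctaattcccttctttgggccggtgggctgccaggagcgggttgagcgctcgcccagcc
Nid1, chr13:13437352-13437651, plus strand: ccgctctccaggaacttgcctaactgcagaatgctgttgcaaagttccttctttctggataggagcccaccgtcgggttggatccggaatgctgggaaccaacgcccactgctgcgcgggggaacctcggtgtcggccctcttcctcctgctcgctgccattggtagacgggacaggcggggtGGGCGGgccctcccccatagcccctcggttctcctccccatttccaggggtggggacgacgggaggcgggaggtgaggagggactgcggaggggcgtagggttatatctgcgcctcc
Lamb2, chr9:108479612-108479911, plus strand: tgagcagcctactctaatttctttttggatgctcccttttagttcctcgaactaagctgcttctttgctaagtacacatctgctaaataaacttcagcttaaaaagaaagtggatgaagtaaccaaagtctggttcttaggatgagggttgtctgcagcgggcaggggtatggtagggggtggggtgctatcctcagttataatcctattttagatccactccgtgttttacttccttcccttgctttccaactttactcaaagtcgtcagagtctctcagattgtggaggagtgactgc

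The window of Agrn holds 12 matches to the GC box, some of them overlapping by a base, that of Lamb1 2, that of Nid1 1 and that of Lamb2 0. The windows not shown hold 5 for Hspg2, which fell, 4 for Lama5, which was not called, and 2 for the second window of Agrn. At least 1 match is in 35.7% of all 32851 promoter windows of 300 bases. Guanine and cytosine made up 83.3% of the Agrn window, 63.7% of that of Lamb1, 64.7% of that of Nid1, 44.0% of that of Lamb2, 70.3% of that of Hspg2 and 72.7% of that of Lama5. These and 3 further motifs, searched on both strands, were chosen after the values were seen. TATAAA, the TATA box, is in 13.6% of all windows, TGANTCA, the AP-1 motif, in 7.81% and TGTGGT, the core of the RUNX motif, in 16.8%. None of the 3 is in the windows of these 4 genes, nor in those of Lama5 and Hspg2, which says only that these letters are not in these windows.

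To compare genes, levels were divided by exon length in the GENCODE annotation of another build, which gives CPM per kb and depends on how complete the gene models are. At 0 h the order was Nid1 at 400.5 ± 22.6 CPM per kb (SD, n = 3), Hspg2 at 208 ± 20.3, Lamc1 at 36.6 ± 3.25, Lama5 at 34.2 ± 1.75, Lama3 at 28.5 ± 1.78, Lamb2 at 26.7 ± 0.569, Lamb1 at 19.7 ± 1.59, Lama1 at 17.1 ± 0.966, Agrn at 8.01 ± 0.178 and Nid2 at 3.76 to 5.56. Only the ranges of Lamc1 and Lama5 overlapped between neighbours. At 72 h Nid1 (86.1 to 153) and Hspg2 (99.2 to 129) overlapped at the top, followed by Lamc1 (52.4 ± 11.1) and Lamb1 (50.8 ± 9.05), which overlapped too. Lama5 (32.1 ± 0.901), Agrn (28.7 ± 3.99), Lama1 (21.1 ± 4.27) and Lamb2 (19.0 ± 3.34) formed a run in which each overlapped the next. Nid2 (6.11 ± 3.91) and Lama3 (2.73 ± 1.91) were lowest and overlapped. In this order Lama3 moved from place 5 to the last, Lamb1 from place 7 to place 4 and Agrn from place 9 to place 6.

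Further chain genes of the laminin family were measured beside them. Lama2, the alpha 2 chain gene known from muscle and nerve, was not called, at 256, 286 and 275 CPM at 0 h and 268, 243 and 230 CPM at 72 h (log2 change −0.14 ± 0.10, adjusted p = 0.295). Its level per length, 16.7 ± 0.915 CPM per kb at 0 h, was close to that of Lama1. Lamb3, whose product partners the alpha 3 chain, rose while Lama3 fell. It stood at 3.19, 4.47 and 4.71 CPM at 0 h and from 9.90 to 20.8 CPM at 72 h (log2 change 1.72 ± 0.39, adjusted p = 0.00610), and its highest value was in 72 h replicate 3, the library with the highest share of corneal and skin epithelial markers. Without that library Lamb3 was still called higher (log2 change 1.28, adjusted p = 0.0115, and 2.2e-04 to 0.0348 over all alternatives tried). Lama4, an alpha chain gene of vessels and mesenchyme, had 5 counts over the 0 h libraries and 154 over the 72 h libraries, of which 95 were in replicate 1. Its log2 change of 5.31 ± 0.94 (adjusted p = 0.00157) became 4.53 when 72 h replicate 1 was left out and 5.98 when 0 h replicate 1 was. Lamc3 had 26 and 24 counts and was not tested.

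Per length, Lama3 was 38.5 to 56.9 times Lamb3 at 0 h and 0.835 to 1.55 times Lamb3 at 72 h. This ratio was described after its values were seen and was not tested.

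Summed over their class, alpha chain transcripts stood at 96.5 ± 5.26 CPM per kb at 0 h and 71.5 ± 4.08 at 72 h (SD, n = 3). Beta chain transcripts stood at 46.0 to 48.7 and 58.8 to 79.6. No library of one group reached into the range of the other for either sum. At 0 h the alpha sum was far above the beta sum, and at 72 h the mean alpha and beta sums were within 1 SD of each other. Single 72 h libraries differed in this. The alpha sums were 69.5, 76.2 and 68.8 in replicates 1, 2 and 3, and the beta sums 79.6, 77.3 and 58.8. The beta sum was thus the higher in replicates 1 and 2 and the alpha sum in replicate 3. Within the alpha class Lama3 made up 29.5% ± 0.493 at 0 h and 3.86% ± 2.83 at 72 h, Lama5 35.5% ± 0.147 and 44.9% ± 1.26, Lama1 17.7% ± 0.0375 and 29.3% ± 4.19, and Lama2 17.3% ± 0.417 and 21.2% ± 2.12. Within the beta class Lamb2 made up 56.8% ± 2.24 and 26.4% ± 0.815, and Lamb1 41.9% ± 2.09 and 70.5% ± 1.58.

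**Figure D4:**
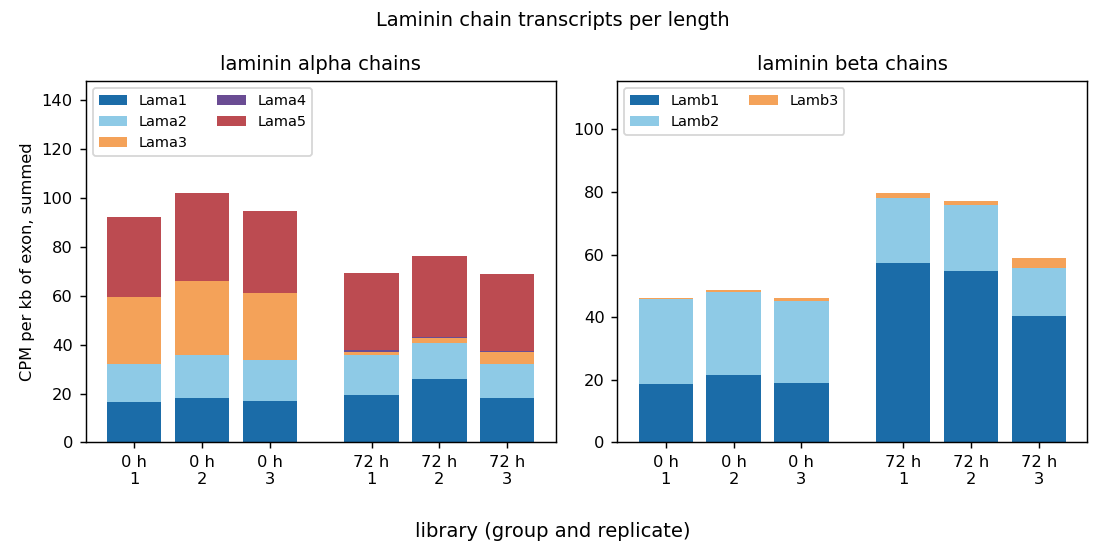
Laminin chain transcripts in each library, in CPM per kb of exon, stacked by gene within the alpha and beta classes (bars are libraries, labelled by group and replicate; axes start at 0 and differ between panels). The orange Lama3 part of the alpha bars is 29.5% of the class at 0 h and 3.86% at 72 h on average, and the dark blue Lamb1 part of the beta bars is 41.9% and 70.5%.

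The other basement membrane genes also moved in both directions, with 6 of 26 tested genes higher and 11 lower (median log2 change −0.32). Over all tested genes 21.0% were called higher and 17.5% lower, with a median of −0.02, and the share called higher in this list was near that background. The list holds collagen IV, whose chains Col4a1 to Col4a5 fell and Col4a6 rose. Col4a1, which encodes an alpha chain of the collagen to which nidogen binds, stood at 9908, 11223 and 10072 CPM at 0 h and at 3712, 4842 and 3912 CPM at 72 h. Its log2 change was −1.32 ± 0.12 (adjusted p = 3.0e-05). Fbln2, the gene of fibulin 2, a glycoprotein that binds laminins, nidogen and perlecan, stood at 1.64, 4.30 and 2.59 CPM at 0 h and at 1641, 1984 and 1866 CPM at 72 h (9.32 ± 0.36, adjusted p = 2.9e-06). Among 7 tested laminin-like genes, 1 rose and 3 fell (all tested genes, 21.0% and 17.5%). The netrin gene Ntn1, which has laminin domains, rose from 0.757 ± 0.329 to 7.04 ± 2.43 CPM (SD, n = 3; log2 change 3.20 ± 0.56, adjusted p = 0.00152). This rise rests on 27 counts over the 0 h libraries and 179 over the 72 h libraries. Megf9 fell from 176 ± 10.3 to 98.9 ± 13.8 CPM (−0.84 ± 0.12, adjusted p = 4.4e-04).

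Laminin receptor genes rose for 10 of 15 tested members and fell for 2, with a median log2 change of 0.76, beside 21.0% higher and 17.5% lower among all tested genes. Itgb1, the beta subunit of most laminin-binding integrins, stood at 276, 276 and 273 CPM at 0 h and at 1915, 1834 and 1650.1 CPM at 72 h (2.71 ± 0.10, adjusted p = 8.1e-08). Itga6, an alpha subunit that pairs with it to bind laminin, went the other way, from 597, 548 and 527 CPM to 252, 265 and 258 CPM (−1.11 ± 0.09, adjusted p = 1.5e-05). The receptor gene shared by laminin, agrin and perlecan, Dag1 (dystroglycan), was at 286 ± 9.24 CPM in the first group and 268 ± 33.8 CPM in the second and was not called (−0.10 ± 0.11, adjusted p = 0.521); it was named after its value was seen.

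Partners of agrin and perlecan rose for 5 of 16 tested members and fell for 8 (median −0.52), where 21.0% of all tested genes rose and 17.5% fell. Ecm1, a secreted protein that binds perlecan, rose from 8.23 ± 0.862 to 589 ± 57.1 CPM (6.16 ± 0.14, adjusted p = 1.3e-08). Fgfr2, a receptor whose ligands bind heparan sulfate, fell from 410.0 ± 26.0 to 108 ± 28.0 CPM (−1.93 ± 0.17, adjusted p = 2.8e-05). The agrin receptor gene Lrp4 fell from 221 ± 10.9 to 109 ± 8.45 CPM while Agrn rose (−1.02 ± 0.10, adjusted p = 4.5e-05); it too was named after its value was seen. Enzymes and transporters of heparan sulfate assembly rose for 10 of 28 tested members and fell for 2 (median 0.06). With 12 of 28 called, this list was near the 38.5% called in either direction over all tested genes (21.0% higher, 17.5% lower). Sulf2, which removes sulfate from heparan sulfate, rose from 2.80 ± 0.397 to 35.1 ± 4.69 CPM (3.64 ± 0.24, adjusted p = 3.1e-06). Xylt1, which starts the sugar chain on the core protein, fell from 108 ± 16.3 to 49.5 ± 12.3 CPM (−1.12 ± 0.18, adjusted p = 0.001).

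Proteases and inhibitors that act on basement membrane rose for 11 of 16 tested members and fell for 3 (median 2.45), against 21.0% and 17.5% of all tested genes. Bmp1, a metalloproteinase that trims laminin and perlecan chains, rose from 139.8 ± 14.5 to 1182 ± 127 CPM (3.08 ± 0.12, adjusted p = 1.5e-07), and Ctsl, cathepsin L, fell from 1513 ± 48.9 to 844 ± 141 CPM (−0.84 ± 0.12, adjusted p = 4.9e-04). Of this list Ctss is also a macrophage marker here, and macrophage and monocyte markers held more of the counts at 72 h, as given above.

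**Figure D5:**
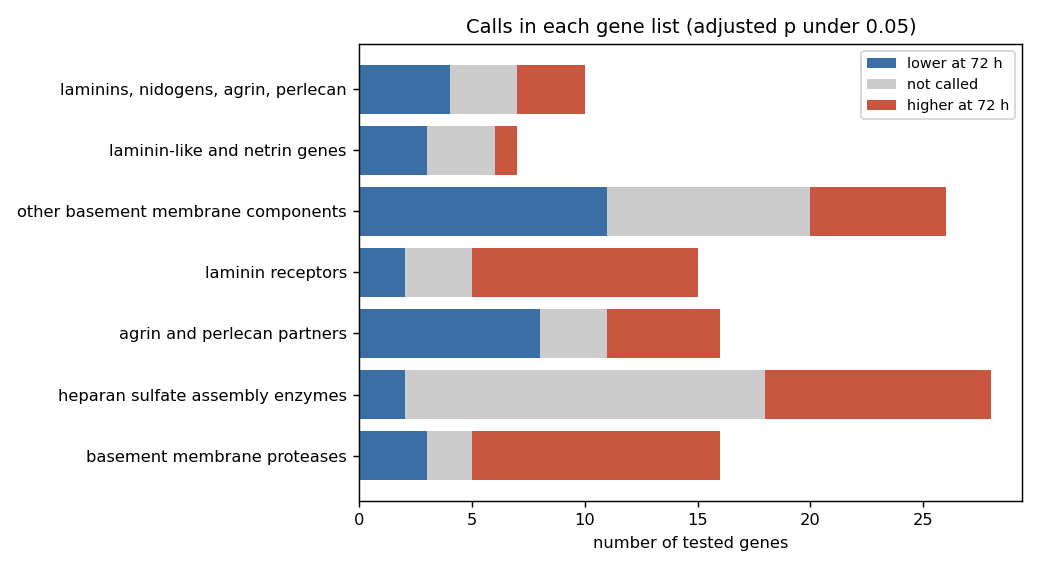
Number of tested genes called lower (blue), not called (grey) and called higher (red) at 72 h in 7 gene lists, at an adjusted p under 0.05 in edgeR's fit. The top bar is the 10 genes, with 4 lower and 3 higher; laminin receptors (10 of 15) and proteases (11 of 16) have the largest shares called higher among lists with over 10 tested genes.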

How the data were processed

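The authors deposited 1 file per library, with raw read counts by Ensembl identifier and no normalization. Per the submitters' processing notes, HISAT2, HTSeq, edgeR and the GRCm39 build were used. Versions, annotation release and strand setting are not given in the sources used here. Libraries were made with a stranded total RNA kit, per the labels' protocols. The 5 summary lines of reads not assigned to a gene (41.9% to 51.7% of all counts listed) were left out. Symbols came from GENCODE, which matched 51947 of 56940 identifiers.

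Genes were filtered with filterByExpr (minimum count 10, minimum total 15), scaled by TMM and tested with edgeR 4.0.16 in R 4.3.3 (robust quasi-likelihood, two-sided, time only, prior count 0.125). Standard errors were the log2 change over the root of F. Ratios within a library used counts plus 0.5. The fit was tested on simulated data. Counts of all 15 pairs of libraries differed beyond sampling noise. Alternatives used limma 3.58.1 and DESeq2 1.42.0.

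The members and lists were chosen with earlier results of these data known. Named are the 10 members, the other laminin chains, from each further list the called gene with the smallest p in each direction, and the 3 genes most like the member with the largest rise and with the largest fall. Some of these genes are not reported here.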

Additional observations from a re-analysis of the deposited data

How the results depend on the processing

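Under 15 alternatives for each of the 10 genes, 140 of 150 values stayed on their side of the threshold, 8 lost a call (Lamb2 and Lamc1), 2 gained one (Lama1 and Nid2, both without 72 h replicate 3) and none of the called ones changed sign. The direction turned in 1 of the 140, that of Nid2, which was not called (0.41, and −0.01 without 72 h replicate 2). The number of the 10 genes called higher was 3, and ranged from 2 to 5 when a library was left out; it was 5 without 72 h replicate 3 and 2 with library size alone. The number called lower was 4, and 3 to 4 when a library was left out. Over all genes 3229 rose and 2700 fell, with 2511 to 3647 and 1877 to 3264 when a library was left out. The 5 ratios kept their direction under every alternative tried, with Lama3 to Lama5 between −4.07 and −3.09 on the log2 scale. With the replicate number as a block, 2921 genes rose and 2507 fell, and the calls of the 10 genes were as without it; same-numbered libraries had correlations of deviations of −0.04, 0.07 and −0.01, and 2 of 6 libraries correlated best with their own number, so the numbers were not taken as pairs. The median log2 change of all genes was −0.11 with upper quartile normalization and −0.02 by TMM. Depth limits Lama4, Lamc3 and Ntn1, with 5, 26 and 27 counts over the 0 h libraries.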

Other observations

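The 3 tested genes whose centred log2 CPM was most like that of Agrn over the 6 libraries were Klf10, Sfxn3 and Gm4425, with root mean square differences of 0.036, 0.089 and 0.099 and log2 changes of 1.89, 1.86 and 1.98. Those most like Lama3 were Vsnl1, Chrm3 and Gm45560, with differences of 0.173, 0.177 and 0.199 and log2 changes of −3.58, −3.72 and −3.61. Without 72 h replicate 3 the log2 change was −4.41 for Vsnl1, −4.37 for Chrm3 and −5.73 for Gm45560, which stood at −4.77 with limma voom. With 2 groups of 3 libraries this likeness is mostly that of the change between groups, and it is given as a description.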
